A study of Mus musculus with 8 samples.

Results

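Cells make fatty acids from citrate, which is cleaved to acetyl-CoA, carboxylated to malonyl-CoA and joined into palmitate. Elongases then lengthen the chain and desaturases make it unsaturated. In brown fat this pathway works beside fatty acid burning, and its genes are classical targets of sterol regulatory element-binding proteins (SREBPs). Here, 10 genes of this pathway (*Acly*, *Acaca*, *Acacb*, *Fasn*, *Elovl6*, *Scd1*, *Scd2*, *Fads1*, *Fads2* and *Srebf1*) were followed through every probe that carries one of their names, 26 of the 56605 probes on the array. None of the 10 genes differed between Co and Pg mice past the test used. *Acly* came nearest, 1.17-fold higher in Pg mice, and *Scd1* varied over 5.50-fold from array to array without following the groups.

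C57BL/6J mice, 12 weeks old, received 100 μL of saline (Co group) or the same volume of saline with sonicated *Porphyromonas gingivalis*, a bacterium of periodontal pockets (Pg group), into a vein. All were male by the study's methods. The methods give the dose as 100000000 CFU, whereas the labels print 108. No other allele or agent was named for either group, so the design holds 1 dose of broken bacteria and 1 time point, 18 h. RNA labeled as brown adipose tissue (BAT) was hybridized with 1 color to 8 Agilent arrays, 4 per group, and the labels do not say how the numbered samples were taken, so p-values refer to the spread between these arrays.

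The arrays shared 1 slide and 1 scan, with Co in row 1 and Pg in row 2, so slide row and group cannot be told apart. Co arrays had 34760 to 35831 probes above background and Pg arrays had fewer, 31132 to 34063 (two-sided exact permutation p = 0.0286, which is the minimum for 4 against 4). The tissue label was checked against marker genes. Of 11 brown adipocyte markers, 7 were above background on all 8 arrays, namely *Cidea*, *Cox7a1*, *Cox8b*, *Dio2*, *Ebf2*, *Prdm16* and *Zic1*, of which *Cox7a1* and *Cox8b* are also muscle genes. *Ucp1*, the uncoupling protein that defines brown adipocytes, and *Elovl3* and *Bmp8b* were above it on 0 arrays, whereas all 10 skeletal muscle markers were above it on all 8. The summed signal of the muscle list (in units of 1000) was 1870 to 2080 on Co and 1820 to 2080 on Pg arrays, that of the 11 adipocyte markers was 291 to 317 and 271 to 316, and that of the brown adipocyte list 462 to 514 and 511 to 555. Thus the sums, which the brightest probes carry, overlapped for each list. The brown sum was carried mainly by *Cox7a1* and *Cox8b* (mean log2 signal in Co 17.75 and 17.94), with *Cidea* next at 13.44. It therefore does not measure brown adipocytes apart from muscle. Among single muscle markers 9 of 10 had a lower mean in Pg, as did 19516 of all 33819 tested probes. The median log2 difference was -0.03 over the muscle list and -0.04 over all tested probes. *Atp2a1*, the calcium pump of fast fibres, fell by 0.44 on the log2 scale (q = 0.0411 with limma, adjusted over all tested probes) with all Pg below all Co arrays. *Ckm* was also lower without overlap (q = 0.186). Of the 11 adipocyte markers 8 had a higher and 3 a lower mean in Pg, against 14303 higher and 19516 lower among all tested probes. *Pparg* was higher without overlap (q = 0.158), as was *Cox7a1* of the brown list (q = 0.141). Of the 8 tested brown adipocyte markers 6 were higher and 2 lower, and *Dio2* differed most, by 0.59 with overlap (q = 0.129). The endothelial marker *Kdr*, a growth factor receptor, rose by 0.57 without overlap (q = 0.0573), whereas *Pecam1* was lower without overlap (q = 0.151). The part of these markers in the values below was not tested. In such bulk RNA, fewer cells of a type and less RNA per cell cannot be told apart.

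The start regions of *Fasn* and *Acly* are shown because these genes stand at the end and the beginning of palmitate synthesis and *Acly* had the smallest p of the 10. Both come from the RefSeq promoter table (GRCm38.p6), 250 bases before to 50 after the start, read 5′ to 3′ on the minus strand, with capitals marking CCAAT (NF-Y box) and GGGCGG (GC box) on either strand. *Fasn* lies at chr11:120824498-120824797 and *Acly* at chr11:100527951-100528250.
Fasn: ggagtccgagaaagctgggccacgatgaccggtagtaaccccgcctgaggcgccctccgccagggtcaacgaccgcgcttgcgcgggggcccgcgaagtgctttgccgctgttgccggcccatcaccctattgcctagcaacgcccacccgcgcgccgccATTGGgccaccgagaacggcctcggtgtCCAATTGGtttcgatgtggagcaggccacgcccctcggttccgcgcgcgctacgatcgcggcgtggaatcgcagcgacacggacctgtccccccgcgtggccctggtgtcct
Acly: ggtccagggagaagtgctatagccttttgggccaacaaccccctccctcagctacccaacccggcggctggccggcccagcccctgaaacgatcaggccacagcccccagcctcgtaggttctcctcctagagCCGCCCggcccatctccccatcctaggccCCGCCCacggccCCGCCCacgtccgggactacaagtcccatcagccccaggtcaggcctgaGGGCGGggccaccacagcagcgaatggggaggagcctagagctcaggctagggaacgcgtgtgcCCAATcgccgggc
In the *Fasn* window, CCAAT was found on one or the other strand at 90, 62 and 59 bases before the start, and the last pair overlap. In the *Acly* window there were 4 GC boxes and 1 CCAAT, the latter after the start. The table matched 7 of the 10 genes with 9 windows, 3 of them for *Srebf1*. CCAAT was present in 5 of the 9 windows and in 37.4% of all 32851 promoters, and GGGCGG in 4 of 9 and in 35.7%. A form of the SREBP element (ATCAC, any 1 base, then CCAC) and CACGTG (E-box) were in 0 of 9 windows and in 0.234% and 7.15% of all promoters, which says only that these letters are not in these windows.

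Of the 26 probes, 17 passed the detection filter (well above background on 4 arrays or more) and were tested, among them at least 1 for each gene. A differentially expressed gene (DEG) was called at q below 0.1 and a fold change above 1.5, with limma and Benjamini-Hochberg adjustment over all 33819 tested probes. By this rule 0 of the 17 probes were called, against 1.61% of all tested probes. At q below 0.1 alone the count was also 0, against 7.82%, and the smallest q was 0.212. At an unadjusted p below 0.05, 1 of 17 was found (*Acly*), against 22.8% of all tested probes, and in 0 of 17 did the groups not overlap, against 15.8%. The median log2 fold change (Pg minus Co) was -0.05 over the 17 probes and -0.04 over all tested probes. The lowest estimate, -0.48, belonged to a *Fads2* probe that was above background on 0 of 4 Pg arrays, so that only a bound can be given for it. With this probe at its bound the median was -0.02, and the other 16 probes ranged from -0.34 to 0.23.

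The 546 DEG probes of the whole array were split into 106 higher and 440 lower in Pg, and this split depended on the scaling and background step, being 66 and 28 with normexp, 75 and 33 on median signals, 137 and 146 when arrays were scaled by their 75th percentile, 20 and 7 when they were not normalized, and 60 and 46 on the log2 values deposited by the authors. Single arrays also moved this total, to 3 without Co replicate 3, 110 without Co replicate 2, 221 without Co replicate 4, 306 without Co replicate 1, 241 without Pg replicate 1, 248 without Pg replicate 2, 697 without Pg replicate 3 and 323 without Pg replicate 4. The count of DEG probes among the 10 genes was 0 under each of these alternatives.

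A p above the threshold does not show that a gene was unaltered, so the 95% interval of each difference is given. For 8 of the 10 genes, judged by the probe with the highest mean signal (the leading probe), this interval lay within 1.5-fold in both directions. The exceptions were *Scd1* and *Fads2*. Over all probes it held for 11 of 17, against 70.1% of all tested probes.

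**Figure D1:**
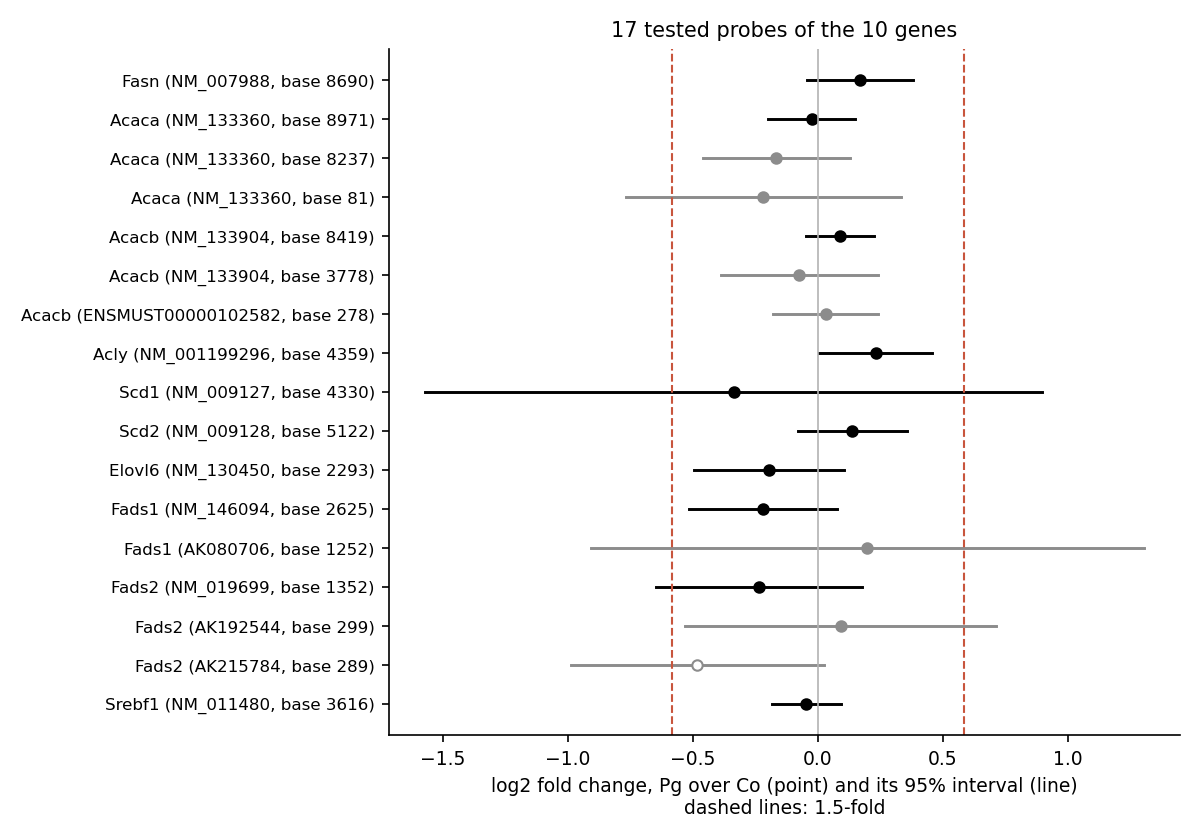
Log2 fold change of Pg over Co (x axis) for the 17 tested probes, named by gene, target transcript and first base in it; points are estimates, lines are 95% intervals from limma, black marks the leading probe of each gene, gray the others, and the open point a probe not above background on any Pg array. Only the *Acly* line stays above 0 (0.00 to 0.46), and those of *Scd1*, *Fads2* and some dimmer probes cross the dashed 1.5-fold lines.

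The first enzymes of the pathway supply acetyl-CoA and malonyl-CoA. *Acly*, ATP citrate lyase, cleaves citrate in the cytosol. Its leading probe (NM_001199296, mm9 chr11:100337674-100337733) read 10.72, 10.76, 10.77 and 10.79 on the 4 Co arrays and 11.15, 11.01, 10.71 and 11.10 on the 4 Pg arrays (log2 signal). The Co arrays lay close together, and 3 Pg arrays lay above all of them while Pg replicate 3 lay below all of them. The difference was 0.23 ± 0.10 (log2, SE, n = 4 per group; interval 0.00 to 0.46), or 1.17-fold, with unadjusted p = 0.0466 and q = 0.212 (limma). It came to 0.33 (q = 0.0658) without Pg replicate 3, the only one of 17 alternatives in which this gene was called. A second *Acly* probe was above background on Co replicates 2 and 3 only and was not tested.

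*Acaca* and *Acacb* encode the acetyl-CoA carboxylases. The product of *Acaca* makes malonyl-CoA for synthesis in the cytosol, and that of *Acacb* makes malonyl-CoA at mitochondria, where it holds back fatty acid import. The leading *Acaca* probe (NM_133360, mm9 chr11:84215093-84215152) read 11.10, 11.10, 11.20 and 11.02 in Co and 11.25 on Pg replicate 1 and 10.98 to 11.09 on the other Pg arrays, a difference of -0.02 (interval -0.20 to 0.15, q = 0.872). Thus the groups overlapped and the estimate lay near 0, taking the other sign (0.01, 0.01 and 0.00) without Co replicate 3, Pg replicate 2 or Pg replicate 4. The other 2 tested *Acaca* probes gave -0.17 (q = 0.476) and -0.22 (q = 0.623), the latter from a probe above background on 4 Co arrays but only 1 Pg array, and 4 probes for other transcripts or positions were above background on 1 or 2 arrays each and were not tested. The leading *Acacb* probe (NM_133904, mm9 chr5:114700702-114700761) read 14.84, 14.86, 14.82 and 14.86 in Co and 15.00, 14.81, 14.97 and 14.95 in Pg. Here 3 Pg arrays lay above every Co array and Pg replicate 2 below every one, with a difference of 0.09 (interval -0.05 to 0.22, q = 0.407). The within-group SD of this probe was lower than that of all but 8.60% of tested probes. The other *Acacb* probes gave -0.07 (q = 0.781), of opposite sign, and 0.03 (q = 0.861). The last of these crosses a splice junction, since its ends lie 18743 genome bases apart.

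*Fasn* encodes fatty acid synthase, which builds palmitate. Its only probe (NM_007988, mm9 chr11:120668460-120668519) read 10.27, 10.60, 10.21 and 10.31 in Co and 10.54, 10.44, 10.51 and 10.57 in Pg. Co replicate 2 was the highest of all 8 arrays, and the other 3 Co arrays lay below every Pg array. The difference was 0.17 ± 0.09 (SE, n = 4 per group; interval -0.04 to 0.38, q = 0.315), at most 1.30-fold higher and 1.03-fold lower within its interval. It was 0.25 without Co replicate 2, and no alternative called it. *Elovl6*, the elongase that turns palmitate into stearate, read 9.40, 9.33, 9.06 and 9.08 in Co and 8.98, 8.73, 9.21 and 9.16 in Pg (NM_130450, mm9 chr3:129337756-129337815). Its groups overlapped, with the 2 lowest arrays in Pg and the 2 highest in Co, and the difference was -0.20 (interval -0.50 to 0.10, q = 0.407), or -0.10 without Pg replicate 2.

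**Figure D2:**
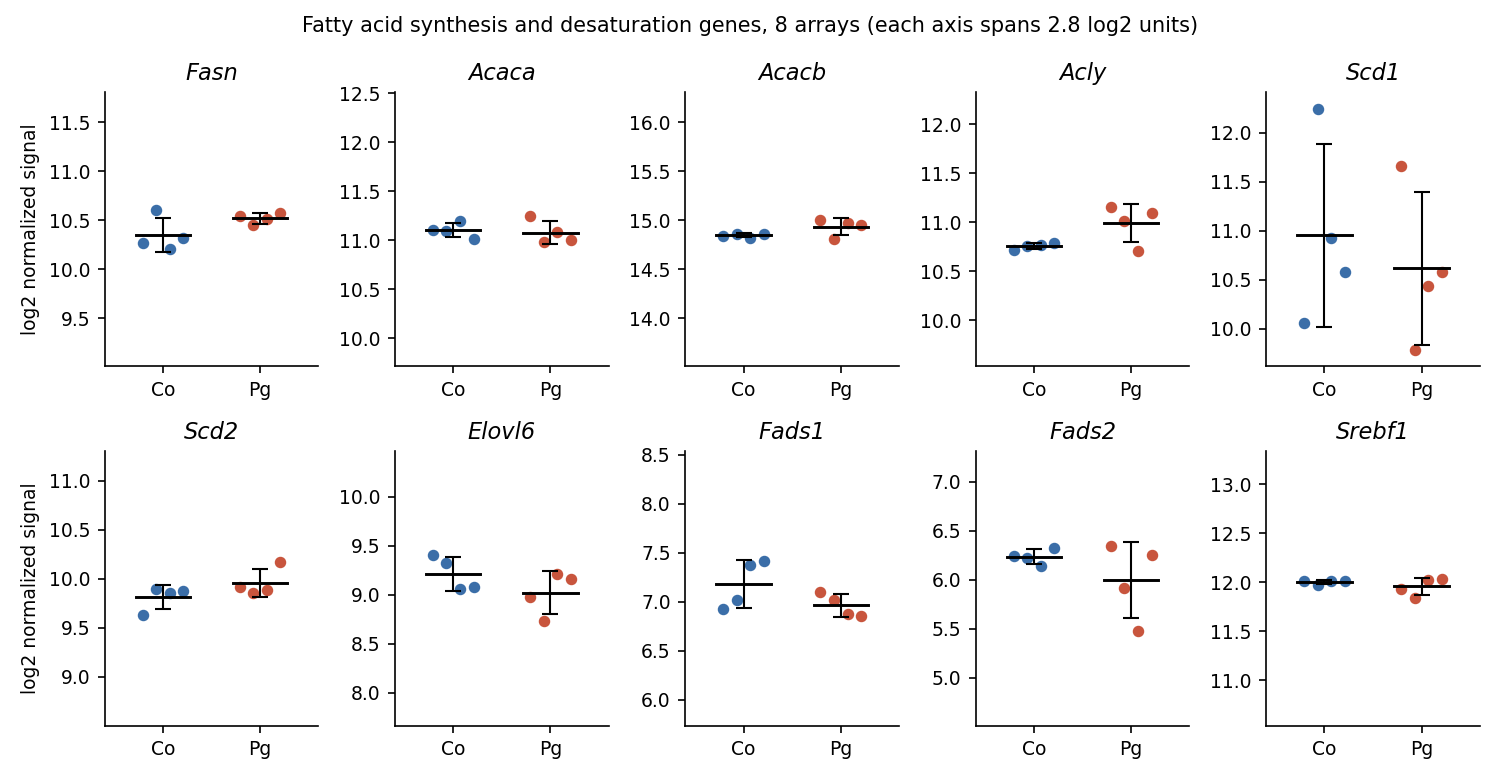
Log2 normalized signal (y axis, equal span in each panel) of the leading probe of each gene on the 4 Co and 4 Pg arrays, drawn left to right in replicate order; points are arrays, bars the group mean and SD. The *Scd1* points spread from 9.79 to 12.25, whereas those of the other 9 genes span 1.14- to 1.81-fold.

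*Scd1* and *Scd2* encode stearoyl-CoA desaturases, which make oleate and palmitoleate from saturated chains. *Scd1* (NM_009127, mm9 chr19:44469387-44469446) read 10.06, 12.25, 10.93 and 10.58 in Co and 11.67, 9.79, 10.44 and 10.58 in Pg. Co replicate 2 and Pg replicate 1 stood above the rest, and the spread within Co alone was 4.57-fold and within Pg 3.68-fold. The within-group SD exceeded that of 97.8% of tested probes. The difference was -0.34 (interval -1.57 to 0.90, q = 0.742), which spans 2.97-fold lower to 1.86-fold higher, so that these arrays did not resolve a change of *Scd1* of either sign within that span. Its sign turned to 0.10 without Co replicate 2, and the value was -0.69 without Pg replicate 1, -0.64 without Co replicate 1 and -0.06 without Pg replicate 2. A second *Scd1* probe (BC114417, mm9 chr19:44471140-44471199), whose listed coordinates run in the opposite direction, was above background on Co replicate 2 only and was not tested. Its values were 4.52 on Co replicate 2 and 4.49 on Pg replicate 1, and 3.12 to 3.69 on the other 6 arrays.

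Both arrays with high *Scd1* were set beside adipocyte genes after their values had been seen. Co replicate 2 and Pg replicate 1 were the 2 highest arrays for 5 of the 11 adipocyte markers, namely *Adipoq*, *Cfd*, *Cidec*, *Plin1* and *Retn*, compared with 2.73% of all tested probes. Of the 10 synthesis genes only *Scd1*, by which the arrays were picked, had this top pair. Both arrays formed the top pair for 0 of 10 muscle, 0 of 8 tested brown adipocyte and 0 of 6 Schwann cell markers. Muscle markers did differ on them. Pg replicate 1 was lowest for *Myh4* (11.38, against 13.38 to 17.07 elsewhere), *Actn3*, *Pvalb* and *Mylpf*. It was not lowest for *Acta1*, *Atp2a1*, *Ckm*, *Myh1* or *Tnnt3*. The summed muscle signal was lowest on Pg replicate 1 and highest on Co replicate 2. *Cidec*, a lipid droplet protein, read 12.24 and 11.81 on these arrays and 9.91 to 10.56 on the other 6. *Adipoq*, the hormone adiponectin, read 11.31 and 11.09 there and 9.61 to 10.23 elsewhere. The other 6 adipocyte markers (*Fabp4*, *Lep*, *Lipe*, *Lpl*, *Pnpla2* and *Pparg*) did not have both arrays on top and spanned 1.21-fold to 1.45-fold over all arrays. Thus *Scd1* and part of the adipocyte list were high on the same arrays, 1 from each group, and the part of adipocyte content in the *Scd1* values was not tested. With both arrays left out, *Scd1* differed by -0.25 between the groups and 0 of the 10 genes were called.

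**Figure D3:**
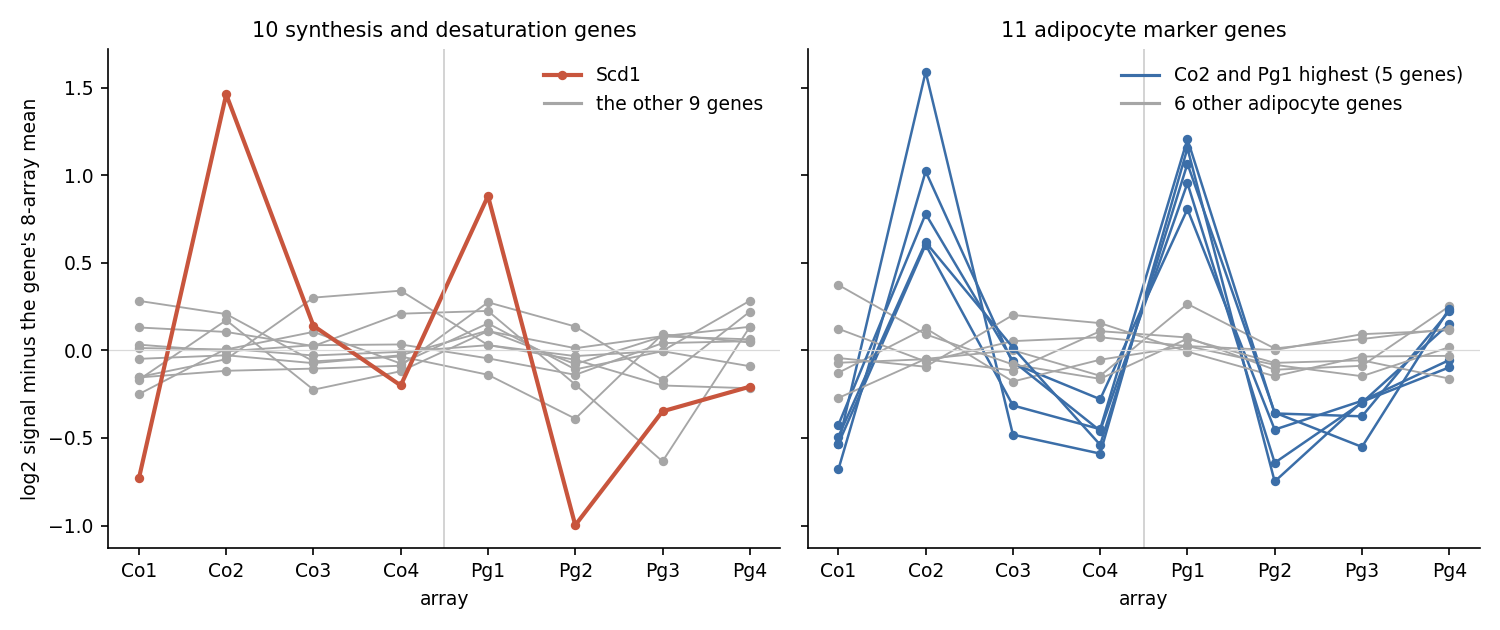
Log2 signal minus the 8-array mean of the gene (y axis) on each array (x axis) for the leading probes of the 10 synthesis and desaturation genes (left, *Scd1* in red) and for 11 adipocyte markers (right, blue where Co replicate 2 and Pg replicate 1 are the 2 highest arrays). *Scd1* and 5 adipocyte markers share both peaks, and the other 9 synthesis genes span at most 1.81-fold, with *Fads2* lowest on Pg replicate 3.

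*Scd2*, the related desaturase that lies in the same gene cluster as *Scd1*, did not show those peaks. It read 9.64, 9.90, 9.86 and 9.88 in Co and 9.92, 9.85, 9.88 and 10.17 in Pg (NM_009128, mm9 chr19:44381024-44381083). Pg replicate 4 was highest and Co replicate 1 lowest, and the difference was 0.14 (interval -0.08 to 0.36, q = 0.416), or 0.07 without Pg replicate 4 and 0.08 without Co replicate 1. Whether related enzymes shifted unequally was tested on the within-array difference of their leading probes, with 3 pairs and an exact permutation test (70 splits, two-sided). *Scd1* minus *Scd2* differed by -0.47 between the groups (exact p = 0.429, adjusted p = 0.643), and by -0.07 without Co replicate 2, -0.23 without Pg replicate 2, -0.71 without Co replicate 1 and -0.84 without Pg replicate 1. *Acaca* minus *Acacb* differed by -0.11 (exact p = 0.143, adjusted p = 0.429), and *Fads1* minus *Fads2* by 0.02 (exact p = 0.971, adjusted p = 0.971). The sign of *Fads1* minus *Fads2* turned in 9 of 17 alternatives, which ran from -0.13 to 0.13. After adjustment over 3 pairs, 1 pair alone could not reach an adjusted exact p below 0.0857, so at the limit of 0.05 set for this test a single shifted pair could not be called. With normexp *Acaca* minus *Acacb* differed by -0.17, at that smallest adjusted p. The SD of the *Scd1* minus *Scd2* difference, 0.85 in Co and 0.77 in Pg, was larger than the difference.

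*Fads1* and *Fads2* are neighboring genes whose enzymes make long polyunsaturated fatty acids from essential ones. The leading *Fads1* probe (NM_146094, mm9 chr19:10270530-10270589) read 6.92, 7.02, 7.37 and 7.41 in Co and 7.10, 7.02, 6.87 and 6.86 in Pg. The groups overlapped, with Co replicates 3 and 4 above all Pg arrays, and the difference was -0.22 (interval -0.52 to 0.08, q = 0.346). It was -0.14 without Co replicate 4 and -0.15 to -0.10 under the other background steps and scalings and on the deposited values. The leading *Fads2* probe (NM_019699), which crosses a splice junction between mm9 chr19:10138750 and 10139180, read 6.25, 6.22, 6.14 and 6.32 in Co and 6.34, 5.92, 5.48 and 6.25 in Pg. Co arrays lay within 1.14-fold of each other and Pg arrays within 1.81-fold, Pg replicate 3 being lowest, and the difference was -0.24 (interval -0.65 to 0.18, q = 0.472). It was -0.06 without Pg replicate 3 and -0.12 to -0.05 under those other background steps and scalings and on the deposited values.

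The remaining tested *Fads1* and *Fads2* probes were made for cDNA clones. The *Fads1* probe for AK080706 read 5.07 to 5.33 in Co, 7.03 on Pg replicate 1 and 4.80 to 4.90 on the other Pg arrays. The *Fads2* probe for AK192544 read 5.10 to 5.30 in Co, 6.11 on Pg replicate 1 and 4.73 to 5.07 on the other Pg arrays. Both were thus highest on Pg replicate 1, and their differences of 0.20 (q = 0.833) and 0.09 (q = 0.865) had the opposite sign to those of the leading probes. The *Fads2* probe for AK215784 was above background on all 4 Co arrays and on 0 Pg arrays, with means of 4.51 and 4.03. It passed the filter through the Co arrays alone, so only a bound for the means can be given (1.02-fold lower in Pg). The groups overlapped and the interval included 0 (-0.99 to 0.03, q = 0.242), so a decrease was not shown. Another *Fads1* probe and 2 further *Fads2* probes were above background on 0 to 2 arrays and were not tested.

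**Figure D4:**
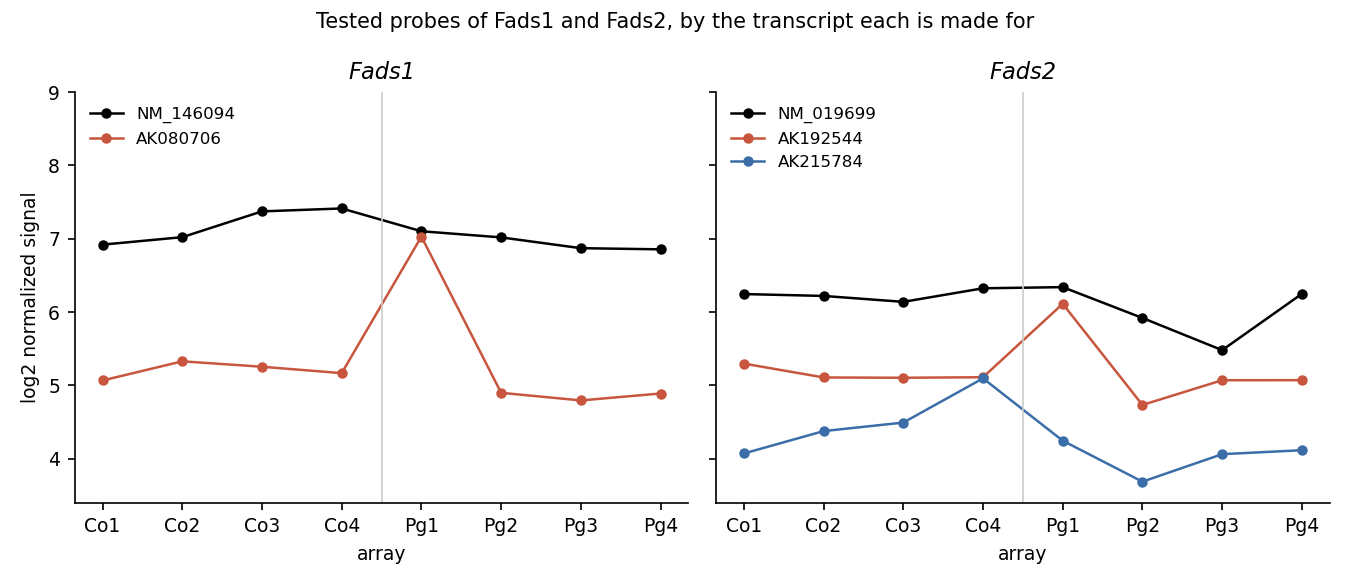
Log2 normalized signal (y axis) of the tested *Fads1* (left) and *Fads2* (right) probes on each array (x axis), labeled by target transcript. The probes for AK080706 and AK192544 peak on Pg replicate 1 at 7.03 and 6.11, where the leading probes read 7.10 and 6.34.

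*Srebf1* encodes an SREBP that activates many genes of this pathway. Its only probe (NM_011480, base 3616, mm9 chr11:60013214-60013273) read 12.01, 11.97, 12.01 and 12.01 in Co and 11.93, 11.84, 12.02 and 12.03 in Pg. The Co values lay within 1.03-fold, and the Pg arrays lay on both sides of them. The difference was -0.05 ± 0.06 (SE, n = 4 per group; interval -0.18 to 0.09, q = 0.685; -0.01 without Pg replicate 2), so the interval reached 1.14-fold lower and 1.07-fold higher. Its within-group SD was lower than that of all but 9.91% of tested probes. RefSeq lists 3 start windows for this gene, and 1 probe cannot tell transcripts from different starts apart.

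Across the 10 leading probes, Pg replicate 2 was the lowest array for 5 genes (*Acaca*, *Acacb*, *Scd1*, *Elovl6* and *Srebf1*), and Pg replicate 1 the highest for 4 (*Acaca*, *Acacb*, *Acly* and *Fads2*). These extremes lie in opposite directions, and the share of all tested probes with the same extremes is not given here, so the counts cannot be called unusual. Pg replicates 1 and 2 were also the arrays with the highest *S100a8*, *S100a9* and *Ly6g*, but not *Mpo*, of the neutrophil markers. *S100a8* read 8.59 and 8.32 on Pg replicates 1 and 2 against 4.56 to 6.76 on the other 6. *Mpo*, the myeloperoxidase of neutrophil granules, read 5.01 and 4.52 there and 4.35 to 5.10 elsewhere. *Ly6g* spanned 8.66 to 9.29 over all arrays, and the summed signal of the 4 neutrophil markers (in units of 1000) was 0.565 to 0.708 on Co and 0.597 to 2.46 on Pg arrays. Pg replicate 2 also had the highest summed signal of the 6 macrophage markers (in the same units), 7.74 against 3.12 to 6.56 on the other arrays, and the highest value of 5 of them. The part of these markers in the values of the 10 genes was not tested. Without Pg replicate 1 the median over the probes of the 10 genes was -0.18, and without Pg replicate 2 it was -0.01.

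To place these genes in their pathway, 52 further genes in 5 lists were read from the same fit, each by its leading probe. Of these, 49 were tested, 5 had q below 0.1 (2 higher and 3 lower in Pg, against 1.82% and 6% of all tested probes), 0 were DEGs, 14 had an unadjusted p below 0.05 (22.8% of all tested probes did), and the median log2 fold change was 0.03. Each of the 5 calls was lost on leaving out at least 2 of the 8 arrays in turn, and each of the 5 genes had a further tested probe that was not called or not above background in Pg.

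Among genes supplying carbon and NADPH, 1 of 10 fell and 0 rose at q below 0.1, against 6% and 1.82% of all tested probes. *Idh1*, the cytosolic isocitrate dehydrogenase that yields NADPH, read 7.96, 7.76, 7.95 and 8.12 in Co and 7.25, 7.54, 7.50 and 7.73 in Pg, with all Pg arrays below all Co arrays. The difference was -0.44 ± 0.12 (SE, q = 0.087). The call was lost on leaving out any 1 of the 8 arrays, with the lowest q at 0.101. A second *Idh1* probe met the DEG rule in the fit (-1.11, q = 0.0824), but it was above background on all Co and on 0 Pg arrays (means 4.99 and 3.88), so that only a bound of at least 1.43-fold lower in Pg can be given. *Tkt*, the transketolase of the pentose phosphate pathway, differed by 0.30 (q = 0.111), and its second probe by -0.29 (q = 0.640). The median of the list was 0.09, and 0.06 without Co replicate 1, but -0.05 on the deposited log2 values.

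In the elongation cycle, 1 of 9 tested genes rose and 0 fell at q below 0.1, against 1.82% and 6% of all tested probes. *Elovl1*, which lengthens saturated very long chains, read 10.98, 11.08, 11.17 and 11.12 in Co and 11.65, 11.68, 11.44 and 11.56 in Pg, so that every Pg array lay above every Co array. The difference was 0.50 ± 0.07 (SE, q = 0.0411), below the 1.5-fold limit, and the call was lost without Co replicate 2 or Co replicate 3. Its other tested probe gave 0.01 (q = 0.962), so the increase was seen by 1 of 2 probes. *Elovl4* differed by 0.76 (q = 0.615), with Pg replicate 3 at 7.62 and the other 7 arrays at 3.18 to 4.86. *Elovl2*, *Elovl3* and *Elovl7* were above background on 0, 0 and 1 arrays. The median of the list was 0.12, but 0.04 without Pg replicate 2, 0.06 without Co replicate 2 or Pg replicate 4, 0.07 without Co replicate 1 and -0.08 on the deposited log2 values.

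Of 9 other desaturases and electron carriers, 1 rose and 0 fell at q below 0.1, against 1.82% and 6% of all tested probes. *Scd3*, a desaturase next to *Scd2* in the same cluster, read 8.20, 8.17, 8.05 and 8.31 in Co and 8.53, 8.41, 8.53 and 8.56 in Pg. The groups did not overlap, and the difference was 0.33 ± 0.07 (SE, q = 0.0647), but 0.05 (q = 0.745) on the deposited log2 values. It was called without Co replicate 4 or Pg replicate 3 but lost on leaving out any of the other 6 arrays, and its other tested probes gave -0.07 (q = 0.799) and -0.29 (q = 0.413), the latter from a probe above background on 4 Co arrays but only 1 Pg array. *Fads6* differed by -0.14 (q = 0.553), and its second probe, above background on 4 Co and 3 Pg arrays, by -0.51 (q = 0.282). The median of the list was 0.03, but -0.06 without Pg replicate 1 and 0.05 without Pg replicate 3.

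Of 14 SREBP, ChREBP and LXR regulators, 0 rose and 2 fell at q below 0.1, against 1.82% and 6% of all tested probes. At an unadjusted p below 0.05, 3 were higher and 4 lower, 7 of 14 against 22.8% of all tested probes. In 6 the groups did not overlap (15.8% of all tested probes), with 3 higher and 3 lower in Pg. *Srebf2*, the SREBP gene that chiefly serves cholesterol synthesis, read 10.32, 10.36, 10.16 and 10.20 in Co and 10.02, 9.92, 9.84 and 10.02 in Pg. The difference was -0.31 ± 0.07 (SE, q = 0.0702), with the second probe at -0.39 (q = 0.177). *Usf1*, which binds E-boxes of lipogenic genes, read 7.29, 7.05, 7.23 and 7.22 in Co and 6.85, 6.93, 6.95 and 6.71 in Pg. The difference was -0.34 ± 0.08 (SE, q = 0.0706), with the second probe at -0.32 (q = 0.336). For both genes the groups did not overlap on the leading probe, and both probes pointed down, but the call of *Srebf2* was lost without any 1 array and that of *Usf1* was kept only without Pg replicate 3. *Thrsp*, a lipogenic protein induced by thyroid hormone, differed by -0.33 (q = 0.207), and its second probe by -0.27 (q = 0.198). The list median was -0.05, and -0.01 without Pg replicate 2.

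Of 7 genes of mitochondrial synthesis and malonyl-CoA removal, 0 passed q below 0.1, against 7.82% of all tested probes. *Oxsm*, the condensing enzyme of mitochondrial synthesis, differed by 0.20 (q = 0.394) with its second probe at 0.08 (q = 0.731). *Mlycd*, which removes malonyl-CoA, differed by 0.15 (q = 0.252) with its second probe at -0.14 (q = 0.412). The list median was 0.02, and 0.01 without Co replicate 2 to 0.05 without Co replicate 1. Over all 17 alternatives it ran from -0.03 to 0.07.

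**Figure D5:**
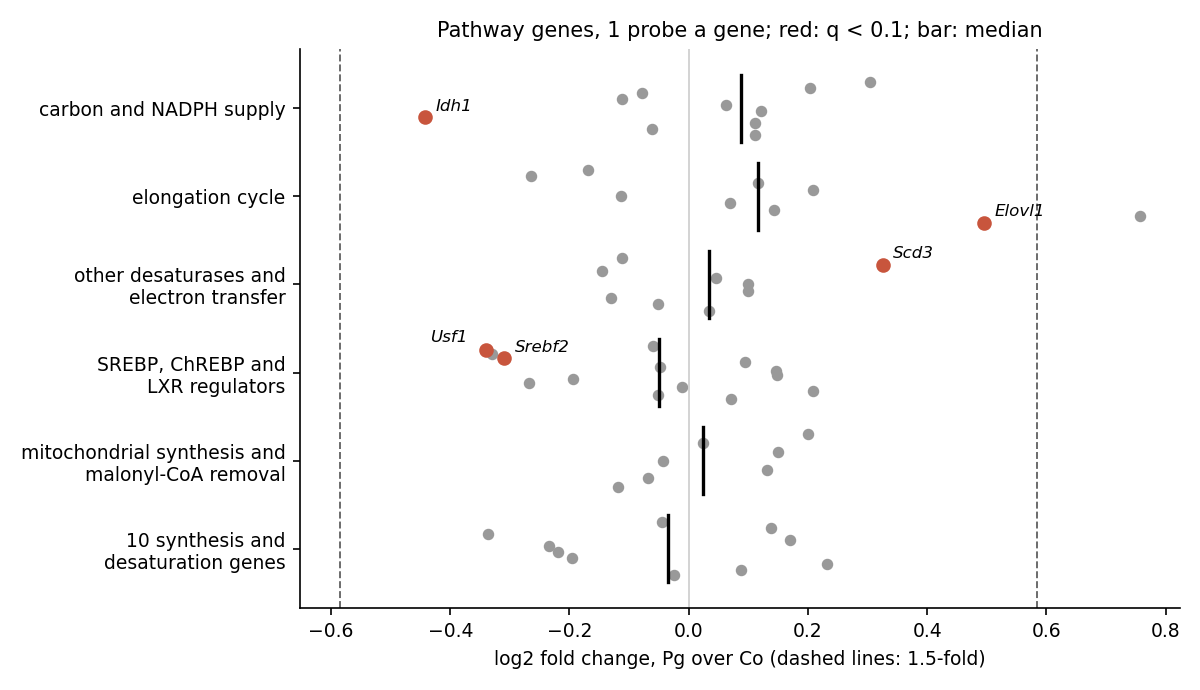
Log2 fold change of Pg over Co (x axis) for the 49 tested pathway genes in 5 lists and the 10 synthesis and desaturation genes, 1 leading probe a gene; red points have q below 0.1, black bars are medians, dashed lines mark 1.5-fold. The 5 red genes all lie within the dashed lines, and the group of 10 holds none.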

How the data were processed

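Per the file headers, each array was read by Agilent Feature Extraction 11.0.1.1 (1 color, Cy3, mm9 design), and the authors deposited the intensity of every spot, of which the processed intensity is background-subtracted and not scaled between arrays. The authors also deposited a table of quantile-normalized log2 values for 28067 probes; it was used as an alternative, and its fold changes and p-values were not used. From 59305 non-control spots, 90 to 150 outlier spots per array were dropped and spots of a probe averaged. Quantile normalization, log2 transformation and limma follow the study's methods; the processed intensity, its floor of 1 and the detection filter were chosen here. The 33819 probes detected above background on 4 or more arrays were compared between Co and Pg (4 arrays each) with limma 3.58.1 in R 4.3.3, two-sided, with Benjamini-Hochberg q-values. The leading probe of a gene has the highest mean log2 value. The script was tested on simulated data. The number of arrays limits the precision.

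Every tested probe of the 10 genes is given with its value and the others as counts, and of the 5 pathway lists each gene with q below 0.1 plus the 2 largest differences per list. Members and lists were chosen with earlier results of these data known. Replicate numbers were not used as pairs (r of same-numbered arrays -0.07 to 0.18). Alternatives changed the background step, scaling, filter, value table, probe, block or arrays used, with 1 setting altered per fit; normexp and median signals also changed the signal statistic, and the deposited table also changed the background step and the probe set.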

Additional observations from a re-analysis of the deposited data

Results flagged for a closer look

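In 56 groups of 4 arrays (34 of them from the 10 genes), 4 held an array that lay far from the other 3 by Dixon's 95% criterion, and chance gives about 1 in 20. *Scd2* read 9.64 on Co replicate 1 and 9.86 to 9.90 on the other Co arrays. The *Fads1* probe for AK080706 read 7.03 on Pg replicate 1 and 4.80 to 4.90 on the others. The *Fads2* probe for AK192544 read 5.30 on Co replicate 1 and 5.10 to 5.11 on the others. *Srebf1* read 11.97 on Co replicate 2 and 12.01 on each of the others.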

How the results depend on the processing

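Among the 10 genes the count of DEG probes was 0 under all 17 alternatives, and the count at q below 0.1 was 0 to 1 on leaving out 1 array (*Acly*, 0.33 without Pg replicate 3) and 0 under the others. Over all probes, DEG numbered 94 with normexp on the mean signal, 108 on median signals, 283 (1546 at q below 0.1) after scaling to the 75th percentile, 27 (29) without normalization, 318 with probes above background on all 8 arrays and 106 (1715) on the deposited log2 values. Without the filter on dim probes 1269 had q below 0.1. Leaving out 1 array gave 3 to 697 DEG and 3 to 2378 probes at q below 0.1. With both arrays of high adipocyte genes left out, an alternative chosen after seeing the data, there were 1 DEG and 1 probe at q below 0.1, and the median of the 10 genes' probes was -0.17. The number of arrays limits what can be called, and spread rests on 4 arrays per group.

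With the replicate number as a block, DEG, probes at q below 0.1 and called genes of the carbon, elongation, desaturase and regulator lists were each 0; own-number arrays correlated best for 4 of 8 arrays, so the numbers were not taken as pairs, and no call among the 10 genes altered.

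Signs turned as follows. *Fads1* minus *Fads2* was -0.081 with normexp, -0.069 on median signals, -0.024 after 75th percentile scaling, -0.024 without normalization and -0.058 on the deposited values, and -0.13 to 0.13 on leaving out 1 array. Another probe gave -0.073 for *Acacb*, 0.20 for *Fads1* and 0.092 for *Fads2*. Leaving out 1 array gave -0.080 to 0.0075 for *Acaca* and -0.69 to 0.10 for *Scd1*. No cause was tested. Without turning sign, it gave 0.18 to 0.33 for *Acly*, 0.12 to 0.25 for *Fasn*, 0.066 to 0.13 for *Acacb*, 0.068 to 0.17 for *Scd2*, -0.26 to -0.099 for *Elovl6*, -0.31 to -0.14 for *Fads1*, -0.35 to -0.063 for *Fads2*, -0.071 to -0.0064 for *Srebf1*, -0.84 to -0.070 for *Scd1* minus *Scd2*, -0.15 to -0.072 for *Acaca* minus *Acacb* and -0.18 to -0.0064 for the median of the 10 genes' probes.

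For the carbon list, genes at q below 0.1 numbered 2 with normexp, median signals, probes above background on all arrays and the deposited values, and 0 with 75th percentile scaling, no normalization, no filter and both arrays left out, and its median was -0.054 on the deposited values. For the elongation list the count was 2 with normexp and median signals and 0 without normalization, on the deposited values and with both arrays left out, with medians of 0.045 with normexp, 0.045 on median signals, 0.060 without the filter and -0.083 on the deposited values. For the desaturase list the count was 0 without normalization, on the deposited values and with both arrays left out. For the regulator list it was 1 with 75th percentile scaling and the deposited values and 0 without normalization, without the filter and with both arrays left out, and its median was -0.11 on the deposited values. The mitochondrial list had medians of 0.074 with normexp, 0.064 on median signals, -0.030 after 75th percentile scaling and -0.027 on the deposited values. Leaving out 1 array gave counts of 0 to 1 for each of the first 4 lists and medians of 0.057 to 0.099 (carbon), 0.040 to 0.17 (elongation), -0.056 to 0.052 (desaturases), -0.070 to -0.014 (regulators) and 0.011 to 0.050 (mitochondrial). Of the 5 called list genes, q stayed below 0.1 in 11 of 16 alternatives for *Elovl1*, 7 of 17 for *Scd3*, 5 of 17 for *Usf1* and 4 of 17 for *Idh1* and *Srebf2*, with 0 turning sign, although *Scd3* came to 0.053 on the deposited values.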
